A study of Mus musculus with 6 samples.

Results

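The genes described here are the heat shock chaperones of the cytosol and mitochondria with their J protein partners and transcription factors, taken from RNA-seq of a mouse heart cell line. They were chosen by symbol: every gene named as an Hspa, Hspb, Hspd, Hspe, Hsph, Hsp90a, Dnaja, Dnajb, Dnajc, Hsf or Cct gene, with Cryab and Tcp1, and without Hspa5, Dnajb9, Dnajb11 and Dnajc3 of the endoplasmic reticulum (ER). This gave 96 of 32739 genes in the count tables, of which 69 had enough counts to be tested, 16 had a few counts and 11 had no count in any library. The rule also took 9 J proteins of the ER and 14 other symbols, mostly pseudogenes, of which 2 were tested. The cells were HL-1, an established line grown in Claycomb medium that derives from mouse atrial cardiomyocytes, and all libraries come from it. All libraries came from cells kept under hypoxia for 6 h and reoxygenated for 1 h (H/R), a model of ischaemia and reperfusion in culture. The vehicle group (3 libraries) received vehicle, and the BRL group (3 libraries) received 5 µM of BRL37344, an agonist of the β3-adrenergic receptor, in the medium, with the time of addition not given in the sources used here. No normoxic cells were analysed here, so every value below is a comparison between agonist and vehicle after H/R. Separate cultures are stated nowhere, so the p-values measure only how far these samples spread, which may be technical.

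Molecular chaperones bind proteins that are unfolded or only partly folded. Small heat shock proteins hold such clients without using ATP, while HSP70 binds and releases them in an ATP-driven cycle that J proteins start and the HSP110 proteins, as nucleotide exchange factors, complete. HSP90 matures kinases and hormone receptors, the ring-shaped complex TRiC folds actin and tubulin, and HSP60 with its lid HSP10 folds proteins imported into mitochondria. In stressed cells heat shock factor 1 (HSF1) binds heat shock elements, repeats of GAA and its complement TTC, and switches on the inducible members. In cardiac muscle several small heat shock proteins are abundant and associate with the sarcomere and its filaments.

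Promoters of 67 of the 96 genes were at hand as RefSeq windows of 300 bases on build GRCm38.p6. Each window ran from 250 bases before to 50 bases after a transcription start. Hspa8, Hsp90aa1, Hsp90ab1, Cryab and Hsf1 were among the genes without a window. A heat shock element was searched for as 3 alternating units, each 2 bases from the next (GAANNTTCNNGAA or TTCNNGAANNTTC, on both strands). It was found in 4 of the 67 genes (5.97%), Hspd1, Hspe1, Dnajb6 and Hsph1, the first 2 through the same bases. Among all 27025 genes with a window it was found in 0.662%. The looser form with 2 units (GAANNTTC or TTCNNGAA, which the longer form contains) was found in 21 of the 67 genes (31.3%) and in 17% of all genes. The stretches below run 5′ to 3′ on the gene's own strand from 250 bases before to 30 bases after the start, and capitals mark the element with 3 units or, where there is none, with 2 units. They are shown as promoters of classical heat-inducible genes: the HSP70 pair, whose reads are hard to tell apart, Hspe1, which shares its promoter with Hspd1, and Hsph1. Other genes with a window are not shown. Among them Dnajb1 had neither form, and Hspb1 and Hspb8 had only the form with 2 units. Counting by the authors was done on the earlier build NCBIM37, so these positions belong to the promoters only. Hspa1a is chr17:34972127-34972406 and Hspa1b chr17:34959209-34959488, both on the minus strand, Hspe1 is chr1:55087898-55088177 on the plus strand, and Hsph1, from 1 of its RefSeq starts, is chr5:149636286-149636565 on the minus strand.
Hspa1a: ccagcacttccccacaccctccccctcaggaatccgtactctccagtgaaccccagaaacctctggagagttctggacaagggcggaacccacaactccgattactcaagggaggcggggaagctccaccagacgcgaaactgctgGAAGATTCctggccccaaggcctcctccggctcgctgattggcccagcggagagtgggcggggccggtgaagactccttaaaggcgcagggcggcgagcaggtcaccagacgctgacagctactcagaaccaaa
Hspa1b: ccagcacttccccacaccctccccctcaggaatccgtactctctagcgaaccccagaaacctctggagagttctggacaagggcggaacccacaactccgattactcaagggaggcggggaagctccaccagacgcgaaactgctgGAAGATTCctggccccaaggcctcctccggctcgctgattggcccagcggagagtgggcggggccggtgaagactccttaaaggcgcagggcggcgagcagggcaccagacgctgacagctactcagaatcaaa
Hspe1: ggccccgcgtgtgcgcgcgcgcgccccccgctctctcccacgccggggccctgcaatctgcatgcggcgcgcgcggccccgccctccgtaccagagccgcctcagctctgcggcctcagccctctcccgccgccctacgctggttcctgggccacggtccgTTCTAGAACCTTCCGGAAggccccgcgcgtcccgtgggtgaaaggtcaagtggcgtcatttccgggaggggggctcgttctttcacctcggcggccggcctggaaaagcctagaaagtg
Hsph1: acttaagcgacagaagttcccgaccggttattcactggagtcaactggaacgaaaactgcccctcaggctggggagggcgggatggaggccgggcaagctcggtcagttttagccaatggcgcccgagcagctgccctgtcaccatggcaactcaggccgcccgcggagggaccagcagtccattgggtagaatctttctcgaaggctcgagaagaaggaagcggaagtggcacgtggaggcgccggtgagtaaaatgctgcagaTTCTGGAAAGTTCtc
The Hspa1a and Hspa1b stretches differ at 4 of 280 positions. The Hspe1 and Hspd1 genes lie head to head and their windows share 285 of 300 bases, so the 18 bases in capitals, which begin 89 bases before the Hspe1 start, belong to both. In Hsph1 the element begins 15 bases after the start. A match describes the letters in a window and does not show that a factor binds there.

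Total expected counts were 4440168 to 5060049 per vehicle library and 6812810 to 8332472 per BRL library, so depth did not overlap between the groups. BRL replicate 1 stood apart from the other libraries. Mitochondrially encoded RNA took 5.03% of its counts against 16.5% to 21.9% in the other 5. The chaperone genes took 1.49% against 1.00% to 1.06% of the same totals, which include that RNA, so the 2 shares are not independent. BRL replicate 1 held the highest level of 37 of the 69 tested chaperone genes (53.6%), compared with 30.2% of all 12047 genes tested. The plot of fold changes therefore shows every gene with it and without it. With all libraries thinned to the smallest total, 0 chaperone genes rose or fell, as at full depth, and 127 of all genes rose and 208 fell. Of 10 cardiomyocyte markers, all were measured and 3 fell with BRL (Ldb3, Pln and Myh6), against 1.79% of all genes. Without BRL replicate 1, 6 fell (10.9% of all genes) and Tnni3 rose (log2 fold change 0.22, adjusted p = 0.0233). The median log2 fold change was -0.30 (-0.29 without that library), and Tnnt2, Nppa and Myl7 were at -0.053, -0.060 and -0.16. The summed level of the markers was 7676 to 8504 CPM (counts per 1000000, after TMM scaling between libraries) with vehicle and 4241 to 5792 CPM with BRL. Of these sums, Myh6 alone averaged 3336 CPM with vehicle and 1329 CPM with BRL. In such bulk RNA, fewer cells of a type and less RNA per cell cannot be told apart. Smooth muscle markers summed to 3061 to 3455 CPM with vehicle and 1269 to 2643 CPM with BRL. The 4 tested had a median of -0.51 with none past the test (2 lower at unadjusted p under 0.05, against 10.8% of all genes). Without BRL replicate 1 their median was -0.28 and 3 fell (10.9% of all genes), and DESeq2 called 1 lower (2.88% of all genes). The summed level of fibroblast, endothelial and leukocyte markers was at most 6.29 CPM per list in any library, with Dcn, Lum, Ptprc, Adgre1 and Lyz2 at 0 in all 6.

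None of the 69 tested chaperone genes rose or fell at adjusted p under 0.05 (edgeR, quasi-likelihood, adjusted after Benjamini and Hochberg over 12047 genes), where 1.01% of all genes rose and 1.79% fell. At unadjusted p under 0.05, 10 of the 69 were higher with BRL and 4 lower (14.5% and 5.80%, against 11.6% and 10.8% of all genes). DESeq2 called Hspa1b and Hsph1 higher and Hspb7 lower (all genes 2.5% and 2.88%), edgeR's exact test called these and Hspbp1 (all genes 3.47% and 4.37%), and limma-voom called none (all genes 0.789% and 1.53%). With no filter on low counts, Hspa1b, Hspbp1 and Hsph1 of 85 chaperone genes rose and Hspb7 fell (all genes 1.4% and 1.64%). Without BRL replicate 1, 9 chaperone genes rose and 6 fell (13.0% and 8.70%), where 10.3% of all genes rose and 10.9% fell. In all 6 libraries, every BRL library lay above every vehicle library for 16 genes (23.2%) and below for 6 (8.70%), against 16.0% and 15.5% of all genes; Hspa1b and Dnajc12, 2 of the 16, passed the count filter through the BRL group. The median log2 fold change of the 69 was 0.075 (0.035 without BRL replicate 1), and that of all genes 0.0051 (0.0033). The classes did not share a direction: small heat shock proteins had a median of -0.39, mitochondrial chaperones 0.22 and TRiC 0.30. Without BRL replicate 1 these medians were -0.23, 0.18 and 0.084, and DESeq2, which also fitted genes of low count, gave -0.20 for the small heat shock proteins.

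**Figure D1:**
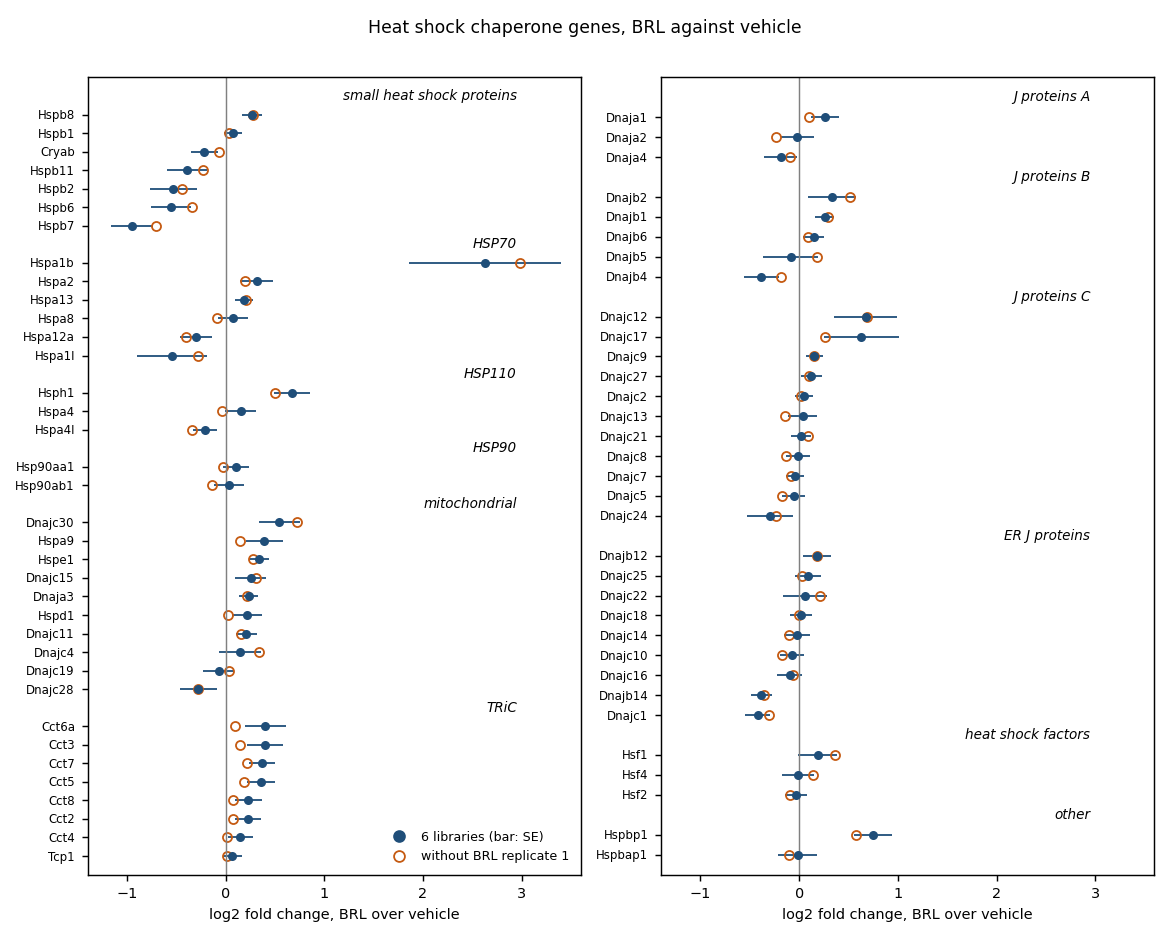
Log2 fold change of BRL over vehicle (x axis) for each of the 69 tested chaperone genes, grouped by class. Filled points are the fit of all 6 libraries with bars of 1 SE, and open points the fit without BRL replicate 1; Hspb7 lies lowest at -0.95 and Hspa1b highest at 2.63.

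Small heat shock proteins split into those with lower and those with higher values in BRL. Hspb7 (ENSMUSG00000006221), a small heat shock protein of heart and skeletal muscle known to bind filamin C, measured 134, 153 and 133 CPM with vehicle and 47.0, 80.8 and 89.8 CPM with BRL, in replicate order here and below. Every BRL library was below every vehicle library, with BRL replicate 1 the lowest. The difference did not pass over all genes (log2 fold change -0.95 ± 0.21, adjusted p = 0.0566), where the ± value is the standard error here and below. Without BRL replicate 1 Hspb7 fell (log2 fold change -0.71, adjusted p = 0.000104). Hspb6, known as HSP20, a relaxant and protective factor in muscle, measured 70.2, 87.7 and 76.8 CPM with vehicle and 36.9, 55.5 and 67.2 CPM with BRL. The groups again did not overlap (log2 fold change -0.56 ± 0.20, adjusted p = 0.161), and without BRL replicate 1 it fell (log2 fold change -0.34, adjusted p = 0.0364). Hspb2, which lies head to head with Cryab and is expressed mainly in muscle, was low in all libraries, at 6.28, 6.92 and 8.11 CPM with vehicle and 4.37, 4.50 and 5.86 CPM with BRL. Its groups did not overlap either, and the test was not passed with all libraries (log2 fold change -0.53 ± 0.23, adjusted p = 0.227) or without BRL replicate 1 (log2 fold change -0.44, adjusted p = 0.209).

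Cryab, αB-crystallin, the small heat shock protein that guards desmin and titin, measured 115, 123 and 116 CPM with vehicle and 80.6, 117 and 107 CPM with BRL. BRL replicate 1 lay well below the rest, replicate 3 just below the vehicle libraries and replicate 2 among them (log2 fold change -0.22 ± 0.14, adjusted p = 0.403; without replicate 1 log2 fold change -0.069, adjusted p = 0.546). Cryab and Hspb2 have overlapping exons on opposite strands, and the use of strand in counting, which is not stated, decides whether reads of the overlap are told apart. Hspb11, which acts in intraflagellar transport as IFT25, had overlapping groups (log2 fold change -0.39 ± 0.20, adjusted p = 0.295). Hspb1, HSP27, the most abundant small heat shock protein per length, measured 183, 181 and 177 CPM with vehicle and 200.1, 192 and 177 CPM with BRL, with overlapping groups (log2 fold change 0.071 ± 0.092, adjusted p = 0.690). Hspb8, which works with Bag3 in the autophagy of damaged filaments, measured 84.8, 72.8 and 75.0 CPM with vehicle and 92.4, 95.6 and 91.9 CPM with BRL. All 3 BRL libraries were above all 3 vehicle libraries (log2 fold change 0.27 ± 0.10, adjusted p = 0.163), and it rose without BRL replicate 1 (log2 fold change 0.28, adjusted p = 0.0309). Bag3 itself, from a list of co-chaperones, measured 73.5, 70.5 and 69.1 CPM with vehicle and 76.6, 107 and 82.1 CPM with BRL, again with no overlap and no pass with all libraries (log2 fold change 0.32 ± 0.14, adjusted p = 0.214; without BRL replicate 1 log2 fold change 0.41, adjusted p = 0.0133). Hspb3 and Hspb9 were too low to test, each at most 1.34 CPM in every library. Of the 7 tested class members, 5 had a log2 fold change below 0 and 2 above, where 50.7% of all genes were above 0. The median log2 fold change of the class, -0.39 and without BRL replicate 1 -0.23, was that of Hspb11. Over the vehicle mean, the class median was -0.41 (again Hspb11) and -0.14 in BRL replicates 2 and 3 and -0.64 in replicate 1. Cardiomyocyte markers were lower in the same libraries, with a median of -0.81, -0.35 and -0.27 over the vehicle mean in BRL replicates 1, 2 and 3, and their part in these values was not tested.

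**Figure D2:**
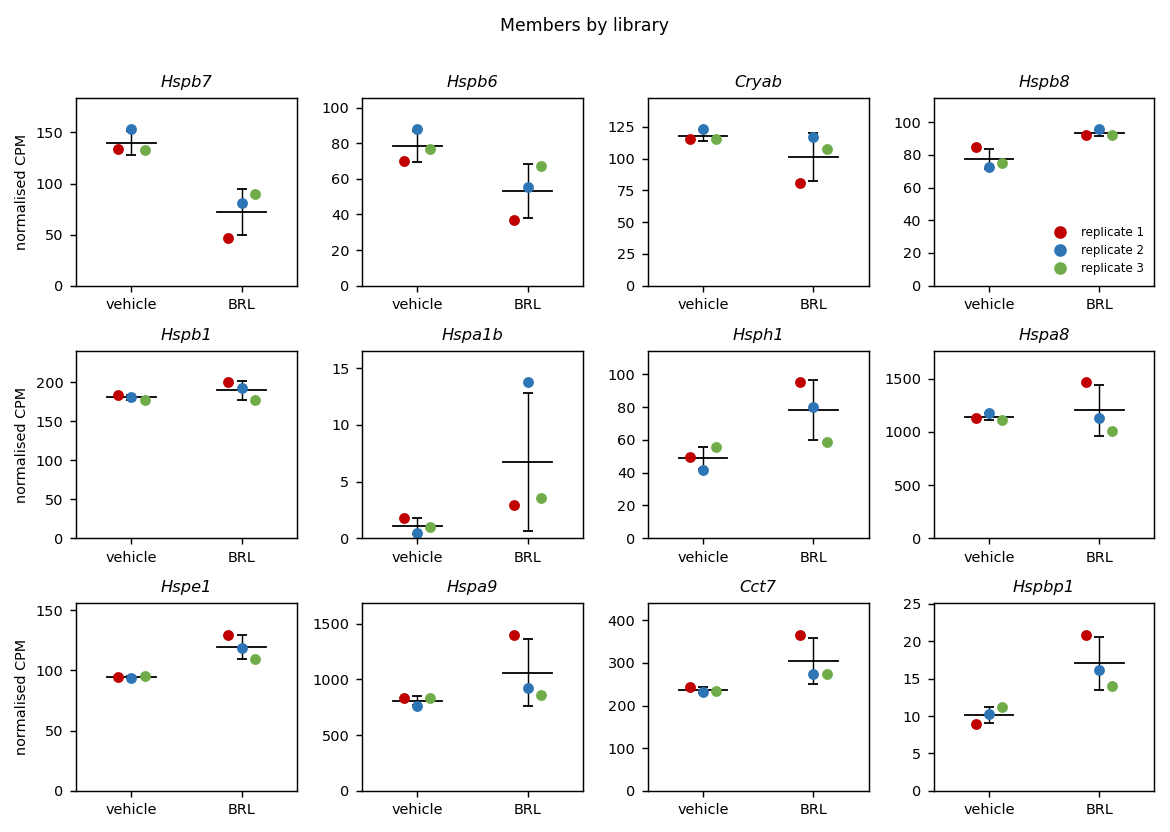
Normalised CPM (y axis, from 0) of 12 chaperone genes in each library, vehicle on the left and BRL on the right of each panel; points are libraries, lines the group mean and bars 1 SD (n = 3). The red point of BRL replicate 1 is the lowest BRL value for Hspb7 and Cryab and the highest for Hspa9, Cct7 and Hspbp1, while BRL replicate 2 is highest for Hspa1b at 13.8 CPM.

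In the HSP70 class the stress-inducible pair had the largest fold differences at very low levels. Hspa1b (ENSMUSG00000090877) measured 1.79, 0.420 and 1.01 CPM with vehicle and 2.91, 13.8 and 3.54 CPM with BRL, from at most 8.38 expected counts with vehicle and 21.9, 98.0 and 29.2 with BRL. BRL replicate 2 was far above the other BRL libraries, and the lowest of these was above the highest vehicle library. Its near-identical copy Hspa1a, which was too low to test, had 1.61, 1.87 and 1.53 expected counts with vehicle and 4.99, 32.7 and 10.1 with BRL, with the same library highest. Reads shared by the pair are divided between them in the expected counts, so the 2 were also summed, giving 10, 4 and 7 counts with vehicle and 27, 131 and 39 with BRL. Neither Hspa1b alone (log2 fold change 2.63 ± 0.77, adjusted p = 0.102) nor the summed pair (log2 fold change 2.56 ± 0.74, adjusted p = 0.0994) passed. Without BRL replicate 2 the log2 fold change of Hspa1b was 1.59 (adjusted p = 0.178), and without BRL replicate 1 it rose (log2 fold change 2.98, adjusted p = 0.00392). All 3 vehicle libraries of Hspa1b were under the minimum count of 10, so it entered the test only through the BRL group, where it is high, and its calls depend on that filter. Over the alternatives tried its adjusted p ran from 0.00392 to 0.332.

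The constitutive HSP70 of the cytosol, Hspa8, had overlapping groups, at 1130.1, 1177 and 1114 CPM with vehicle and 1468, 1130.2 and 1004 CPM with BRL (log2 fold change 0.075 ± 0.15, adjusted p = 0.808). BRL replicate 1 was the highest library and BRL replicate 3 the lowest. Hspa13, a microsome-associated HSP70, had no overlap between groups (log2 fold change 0.19 ± 0.094, adjusted p = 0.275), while Hspa2, Hspa12a and Hspa1l overlapped (log2 fold change 0.31, -0.30 and -0.55).

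The HSP110 class, whose proteins help HSP70 to exchange ADP for ATP, held 3 genes with unlike values. Hsph1, the heat-inducible HSP105 whose promoter stretch is shown above, measured 49.8, 41.5 and 55.3 CPM with vehicle and 95.3, 79.8 and 58.8 CPM with BRL. The groups did not overlap, but BRL replicate 3 was only slightly above vehicle replicate 3. It did not pass with all libraries (log2 fold change 0.67 ± 0.19, adjusted p = 0.0905), and it rose without BRL replicate 1 (log2 fold change 0.50, adjusted p = 0.0172). Hspa4, the most abundant of the class by counts, was at 197, 179 and 196 CPM with vehicle and 264, 174 and 197 CPM with BRL, with overlapping groups (log2 fold change 0.15 ± 0.15, adjusted p = 0.604). Hspa4l did not pass (log2 fold change -0.21 ± 0.12, adjusted p = 0.349) but fell without BRL replicate 1 (log2 fold change -0.34, adjusted p = 0.00454), and its replicate 1 value was the highest of the BRL group.

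Both cytosolic HSP90 genes had overlapping groups. The constitutive Hsp90ab1 measured 1922, 1909 and 2048 CPM with vehicle and 2457, 1818 and 1741 CPM with BRL (log2 fold change 0.033 ± 0.15, adjusted p = 0.925), and the inducible Hsp90aa1 549.6, 566 and 617 CPM with vehicle and 738, 577 and 549 CPM with BRL (log2 fold change 0.11 ± 0.13, adjusted p = 0.683). In each, BRL replicate 1 was the highest library and BRL replicate 3 the lowest. Without BRL replicate 1 both values lay below 0 (log2 fold change -0.13 and -0.032), with neither past the test (adjusted p = 0.207 and 0.787).

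Of the 10 mitochondrial chaperones and J proteins, 8 had a log2 fold change above 0 (50.7% of all genes did), and 9 did so without BRL replicate 1. Hspe1, HSP10, the lid of the HSP60 chamber, measured 94.4, 93.6 and 95.3 CPM with vehicle and 129.7, 119 and 109 CPM with BRL. The vehicle libraries were within a narrow range and all BRL libraries were above it (log2 fold change 0.34 ± 0.10, adjusted p = 0.102); Hspe1 rose without BRL replicate 1 (log2 fold change 0.28, adjusted p = 0.0183). Its partner Hspd1, HSP60, measured 433, 413 and 449 CPM with vehicle and 627, 435 and 440.5 CPM with BRL, where BRL replicate 1 stood above the vehicle range and replicates 2 and 3 lay within it (log2 fold change 0.21 ± 0.15, adjusted p = 0.440; without replicate 1 log2 fold change 0.025, adjusted p = 0.823). The 2 genes have overlapping exons on opposite strands, with the same limit as for Cryab and Hspb2. Hspa9, mortalin, the HSP70 that pulls proteins through the inner membrane, measured 832, 761 and 833 CPM with vehicle and 1404, 921 and 859 CPM with BRL. Every BRL library was above every vehicle library, with replicate 1 far above the other 5 libraries (log2 fold change 0.39 ± 0.18, adjusted p = 0.251; without it log2 fold change 0.14, adjusted p = 0.169).

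The mitochondrial J proteins were lower in level. Dnaja3, known as Tid1, the J protein of mortalin, measured 85.0, 84.3 and 80.7 CPM with vehicle and 100.5, 102 and 91.1 CPM with BRL with no overlap (log2 fold change 0.23 ± 0.094, adjusted p = 0.195). Dnajc30, a mitochondrial J protein that associates with ATP synthase, measured 13.2, 14.5 and 10.9 CPM with vehicle and 14.0, 21.7 and 20.6 CPM with BRL. BRL replicate 1 lay within the vehicle range and replicates 2 and 3 above it (log2 fold change 0.54 ± 0.20, adjusted p = 0.171), and it rose without replicate 1 (log2 fold change 0.72, adjusted p = 0.00435). Its exons overlap Bud23 on the other strand. Dnajc11, Dnajc15, Dnajc4 and Dnajc19 had overlapping groups (log2 fold change 0.21, 0.25, 0.14 and -0.072), and Dnajc28 was the lowest of the class (-0.28). In the list of mitochondrial quality control genes (11 tested, median log2 fold change 0.16), 1 rose with all libraries, against 1.01% of all genes. Without BRL replicate 1, 5 rose and 1, Clpx, fell (log2 fold change -0.29, adjusted p = 0.0342), against 10.3% and 10.9% of all genes. The gene that rose with all libraries was Clpp, the protease of the matrix. It measured 25.3, 23.7 and 22.1 CPM with vehicle and 41.8, 34.2 and 35.3 CPM with BRL (log2 fold change 0.65 ± 0.12, adjusted p = 0.0370). Clpb, a disaggregase, and Grpel1, the exchange factor of mortalin, did not pass with all libraries (log2 fold change 0.44 ± 0.12, adjusted p = 0.0846 and log2 fold change 0.46 ± 0.14, adjusted p = 0.114). Both rose without BRL replicate 1 (log2 fold change 0.33, adjusted p = 0.0131 and log2 fold change 0.29, adjusted p = 0.0233), and Clpb was also called by the exact test (adjusted p = 0.0392).

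TRiC is built from the products of Tcp1 and Cct2 to Cct8. All 8 subunits had a log2 fold change above 0, from 0.069 for Tcp1 to 0.40 for Cct6a, against 50.7% of all genes. Cct7, the subunit with the smallest p, measured 243, 231 and 234 CPM with vehicle and 367, 274 and 273 CPM with BRL, and every BRL library was above every vehicle library (log2 fold change 0.37 ± 0.13, adjusted p = 0.153). Cct5 measured 209, 202 and 204 CPM with vehicle and 325, 234 and 232 CPM with BRL, also without overlap (log2 fold change 0.36 ± 0.14, adjusted p = 0.182). Cct3, Cct6a and Cct8 also did not overlap, while Cct2, Cct4 and Tcp1 did, so 5 of the 8 lay wholly above, against 16.0% of all genes. For Tcp1 the values were 411, 410.3 and 408 CPM with vehicle and 468, 407 and 414 CPM with BRL, so replicate 1 was the 1 library outside a very narrow band. BRL replicate 1 was the highest library for 8 of the 8 subunits, against 30.2% of all genes. The class median over the vehicle mean was 0.57 in that library, and 0.091 and 0.076 in BRL replicates 2 and 3. Without BRL replicate 1, the class median log2 fold change was 0.084 with all 8 above 0. Cct5 and Cct7 rose in that fit, against 10.3% of all genes (log2 fold change 0.19, adjusted p = 0.0483 and log2 fold change 0.22, adjusted p = 0.0254). The testis copies Cct6b and Cct8l1 were near 0. Prefoldin, the complex that passes actin and tubulin to TRiC, had 6 subunits tested, 0 past the test with or without BRL replicate 1 (3 at unadjusted p under 0.05 with it, all higher, against 11.6% of all genes) and a median of 0.17. In Pfdn6, Pfdn2 and Pfdn4 every BRL library was above, against 16.0% of all genes (log2 fold change 0.38, 0.37 and 0.33).

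**Figure D3:**
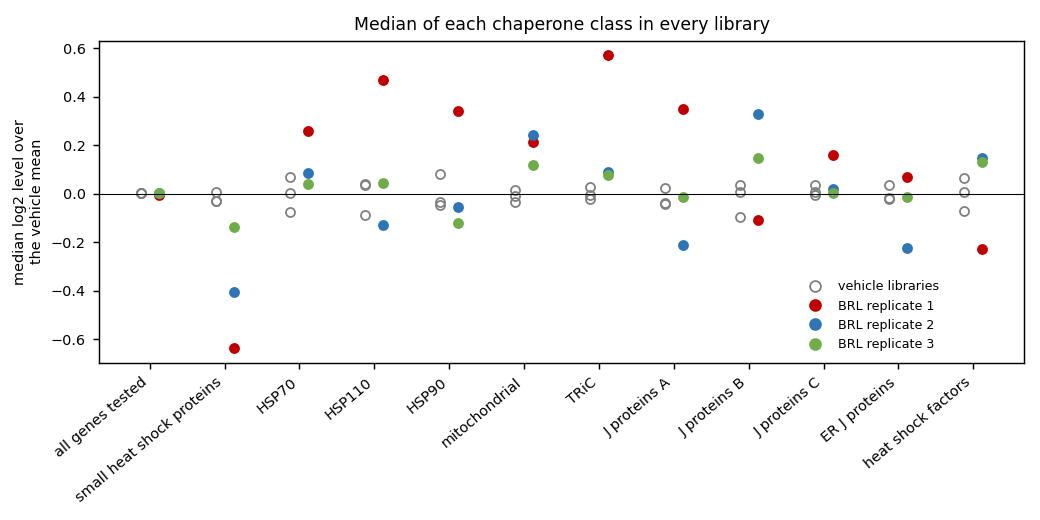
Median log2 level of the tested genes of each class in every library relative to the vehicle mean (y axis), for all genes tested and 11 classes on the x axis. Open points are the vehicle libraries and coloured points the BRL libraries; TRiC reaches 0.57 in BRL replicate 1 and under 0.10 in the other BRL libraries, and the small heat shock proteins are below 0 in all 3.

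Among J proteins of the cytosol and nucleus, Dnajb1, HSP40, the heat-inducible partner of HSP70, measured 46.6, 51.8 and 50.5 CPM with vehicle and 57.4, 62.5 and 58.5 CPM with BRL. The groups did not overlap (log2 fold change 0.26 ± 0.10, adjusted p = 0.171), and it rose without BRL replicate 1 (log2 fold change 0.29, adjusted p = 0.0299). Dnajb6, which suppresses aggregation of polyglutamine proteins and is tied to the Z-disc, measured 161, 141 and 156 CPM with vehicle and 184, 155 and 169 CPM with BRL, with overlapping groups (log2 fold change 0.15 ± 0.11, adjusted p = 0.444). Dnajb4, another heat-inducible J protein, was lower in every BRL library, at 94.6, 87.9 and 99.9 CPM with vehicle and 51.1, 85.0 and 80.6 CPM with BRL (log2 fold change -0.38 ± 0.18, adjusted p = 0.253), with a smaller value without replicate 1 (log2 fold change -0.18, adjusted p = 0.130). Dnaja1, the abundant type A partner of HSC70, measured 167, 160.3 and 168 CPM with vehicle and 241, 189 and 164 CPM with BRL, with the groups overlapping at BRL replicate 3 (log2 fold change 0.26 ± 0.14, adjusted p = 0.314; without replicate 1 log2 fold change 0.10, adjusted p = 0.371). Dnaja2 fell without BRL replicate 1 alone (log2 fold change -0.24, adjusted p = 0.0290; with all libraries log2 fold change -0.018, adjusted p = 0.965). Dnajc5, the cysteine string protein of secretory vesicles, was at 259, 253 and 246 CPM with vehicle and 281, 225 and 222 CPM with BRL, with BRL values on both sides of the vehicle range (log2 fold change -0.057 ± 0.12, adjusted p = 0.808). Dnajc12, a cytosolic J protein known to aid aromatic amino acid hydroxylases, was low, at 1.57, 1.89 and 2.84 CPM with vehicle and 3.31, 3.66 and 3.18 CPM with BRL (log2 fold change 0.67 ± 0.32, adjusted p = 0.253). With at most 14 counts in a vehicle library, it met the filter through the BRL group, so nothing is read from the separation of its groups. The 11 tested type C genes had a median of 0.034 and 0 past the test, where 1.01% of all genes rose and 1.79% fell. At unadjusted p under 0.05 there were 0, where 11.6% of all genes were higher and 10.8% lower.

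J proteins of the ER membrane or lumen (9 tested, median -0.020) held 2 genes that were lower in every BRL library, against 15.5% of all genes. Dnajb14, a J protein of the ER membrane, measured 31.2, 31.3 and 32.4 CPM with vehicle and 23.3, 23.9 and 25.4 CPM with BRL. The groups were narrow and apart (log2 fold change -0.38 ± 0.10, adjusted p = 0.0868), and it fell without BRL replicate 1 (log2 fold change -0.35, adjusted p = 0.0280). Dnajc1, which docks ribosomes and BiP at the ER membrane, measured 34.5, 34.6 and 37.3 CPM with vehicle and 22.5, 28.4 and 28.7 CPM with BRL (log2 fold change -0.42 ± 0.13, adjusted p = 0.109; without BRL replicate 1 log2 fold change -0.31, adjusted p = 0.0395). Dnajc10, the ER disulfide reductase ERdj5 and the most abundant of the class, measured 166, 147 and 173 CPM with vehicle and 177, 138 and 148 CPM with BRL, with overlapping groups (log2 fold change -0.068 ± 0.12, adjusted p = 0.783). By comparison, a list of 11 chaperones of the ER that are not members, with Hspa5 among them, had 0 past the test and 4 higher at unadjusted p under 0.05 (11.6% of all genes). All 11 had log2 fold changes above 0 (median 0.31), against 50.7% of all genes. Sdf2l1, a partner of the luminal J proteins, was at 0.61 (adjusted p = 0.0750), Calr, calreticulin, at 0.49 (0.0881), and Hspa5, BiP, at 0.60 (0.0980). DESeq2 and the exact test each called these 3 higher, where 2.5% and 3.47% of all genes rose. Without BRL replicate 1, 5 of the 11 rose (10.3% of all genes), with adjusted p = 0.00183 for Sdf2l1, 0.00686 for Calr and 0.0101 for Hspa5.

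None of the 3 tested heat shock factors passed, where 1.01% of all genes rose and 1.79% fell. None had an unadjusted p under 0.05, where 11.6% of all genes were higher and 10.8% lower. Hsf1 measured 26.5, 31.3 and 26.1 CPM with vehicle and 23.7, 41.1 and 31.0 CPM with BRL, with BRL replicate 1 the lowest library and BRL replicate 2 the highest (log2 fold change 0.19 ± 0.20, adjusted p = 0.612). Hsf2, a factor of development that can pair with HSF1, measured 26.2, 26.0 and 26.4 CPM with vehicle and 27.9, 23.5 and 25.4 CPM with BRL, with BRL values on both sides of vehicle (log2 fold change -0.032 ± 0.11, adjusted p = 0.899). For Hsf4 the groups overlapped (log2 fold change -0.013 ± 0.16, adjusted p = 0.975), and Hsf3 and Hsf5 were too low to test. Of the 15 genes listed as textbook targets of HSF1 among these chaperones, 14 were tested, 0 passed, 5 were higher at unadjusted p under 0.05 (Hspa1b, Hsph1, Dnajb1, Hspb8 and Hspe1) and none lower, against 11.6% and 10.8% of all genes. Hspa1b was tested only through its BRL libraries, as said above. The median of the 14 was 0.16, and 0.030 without BRL replicate 1, when 5 rose and 1 fell, against 10.3% and 10.9% of all genes.

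Hspbp1, an exchange factor that acts on HSP70, measured 8.97, 10.3 and 11.1 CPM with vehicle and 20.9, 16.2 and 14.1 CPM with BRL. The groups did not overlap, and BRL replicate 1 was the highest (log2 fold change 0.75 ± 0.19, adjusted p = 0.0787); it rose without that library (log2 fold change 0.57, adjusted p = 0.0275). The list of other co-chaperones, 26 genes, all of them tested, had a median log2 fold change of 0.18. Of these, 1 rose and 1 fell, against 1.01% and 1.79% of all genes. Without BRL replicate 1, 3 rose and 3 fell, against 10.3% and 10.9% of all genes. Unc45a, the general myosin and HSP90 co-chaperone, rose, with 15.5, 12.6 and 13.8 CPM with vehicle and 22.2, 23.1 and 21.7 CPM with BRL (log2 fold change 0.68 ± 0.13, adjusted p = 0.0385). Unc45b, its muscle counterpart that folds sarcomeric myosin, fell, with 87.2, 102 and 94.9 CPM with vehicle and 60.1, 42.4 and 52.7 CPM with BRL (log2 fold change -0.87 ± 0.14, adjusted p = 0.0180). In both genes the groups were apart in all libraries, and without BRL replicate 1 the calls held (log2 fold change 0.69, adjusted p = 0.00371 for Unc45a; log2 fold change -0.99, adjusted p = 3.12e-05 for Unc45b). Relative to the vehicle mean Unc45b was at -0.65, -1.15 and -0.84 (log2) in BRL replicates 1, 2 and 3. The cardiomyocyte markers had medians of -0.81, -0.35 and -0.27 in these libraries, and their part in the Unc45b values was not tested. Cdc37l1, an HSP90 co-chaperone, was lower in every BRL library without passing (log2 fold change -0.42 ± 0.13, adjusted p = 0.108), and fell without BRL replicate 1 (log2 fold change -0.30, adjusted p = 0.0255).

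Per transcript length, an HSP70 and an HSP90 gene were the most abundant of the 69 with vehicle. The authors' RSEM fraction times 1000000 (TPM) gave 1392 ± 53.0 for Hspa8 and 1233 ± 62.5 for Hsp90ab1 with vehicle (SD, n = 3). Next came Hspa9 at 424 ± 31.5 and Hspb1 at 384 ± 15.2, whose 1 SD ranges overlap, then Tcp1 at 339.8 ± 8.90. Hsp90aa1 (315 ± 5.42) and Cct4 (306 ± 17.5) also overlapped, as did Cct4 and Hspd1 (281 ± 17.8). Cryab (229.8 ± 6.93), Cct8 (219 ± 12.1) and Hspe1 (205 ± 7.91) followed, each overlapping its neighbour. The TRiC subunits spanned 146 ± 15.0 for Cct3 to 339.8 ± 8.90 for Tcp1 although they enter the complex in equal number. Inducible HSP70 was at the other end, at 0.605 ± 0.440 for Hspa1b. Summed over all 96 genes this level was 8770, 8026 and 8274 TPM with vehicle and 13706, 7535 and 7750 TPM in BRL replicates 1, 2 and 3. TPM is a share of each library with no scaling between libraries, and mitochondrially encoded RNA took only 5.03% of the counts of BRL replicate 1. After TMM scaling the sums were 10529, 10335 and 10639 CPM with vehicle and 13448, 10576 and 10222 CPM with BRL. On both scales only replicate 1 lay above vehicle, by less in CPM.

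**Figure D4:**
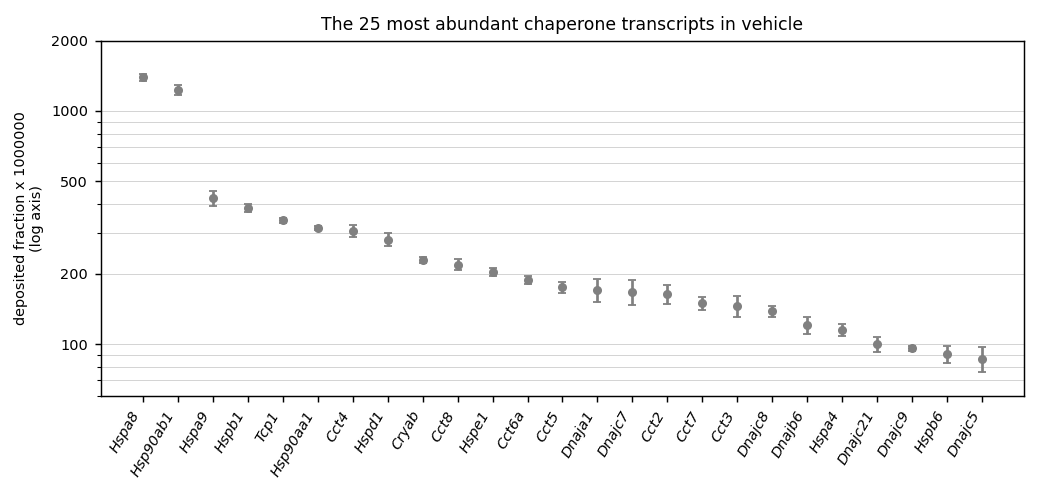
TPM, the authors' fraction times 1000000 (y axis, log scale), of the 25 most abundant chaperone genes in the vehicle group, in falling order along the x axis. Points are means of 3 libraries and bars 1 SD; Hspa8 and Hsp90ab1 lie at 1392 and 1233, and the rest between 86.7 and 424.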

How the data were processed

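RNA-seq libraries of HL-1 cells (3 vehicle, 3 BRL; TruSeq RNA v2, Illumina GAIIx, per the labels' protocols) were grouped by their titles. Each deposited sample file gives, by gene, the expected count of RSEM and a fraction; over 917 genes with 1 transcript the authors' fraction behaved as a level per transcript length. The authors' deposited series table, used only as an alternative, holds log2 values equal to log2 CPM (0.5 added) plus a shift per library for 13863 genes. Reads were handled with cutadapt, Bowtie, RSEM 1.17 and edgeR on NCBIM37, per the submitters' processing notes, with settings and strand not given in the sources used here.

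Rounded expected counts entered edgeR 4.0.16 under R 4.3.3 (filterByExpr, minimum count 10; TMM factors; quasi-likelihood F-test, group only), with Benjamini-Hochberg adjustment over 12047 genes and a threshold of 0.05. The standard error is the size of the log2 fold change divided by the root of F. DESeq2 1.42.0 and limma 3.58.1 were alternatives. At 4440168 to 8332472 counts per library, 3 counts, the floor for a gene at 0, are 0.360 to 0.676 CPM, which covers counting error only. Replicates of a group differed by more than sampling noise (chi-square per degree of freedom 1.69 to 89.1).

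Symbols came from the supplied names table (88.5% of all genes). Expected counts of 30 of the 69 tested chaperone genes, among them Hspb7, Hspb6, Hspa1b, Hspe1, Hspd1, Hspa9, Cct7 and Dnajb14, and that of Unc45b, were not whole within 0.005, and 27 of the 69 have exons that overlap another gene in GENCODE M21, which is of another build (Hspb6, Cct7, Dnajb14 and Dnajc1 among them); such values are less certain. Promoter windows were from RefSeq (GRCm38.p6). Genes named were those past the threshold, the smallest p and highest level of each class, fixed stress-inducible genes and factors, and up to 3 of smallest p per list; other genes were chosen after their values were seen. The members and lists were chosen with earlier results of these data known.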

Additional observations from a re-analysis of the deposited data

How the results depend on the processing

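Up to 18 alternatives were run for 25 named chaperone genes. Of 424 values, 395 kept their direction and side of the threshold, 21 passed it and 8 changed sign, all of these on leaving out 1 library. Chaperone genes that rose numbered 2 with DESeq2, 3 with edgeR's exact test, 3 with no filter on low counts and 0 to 9 on leaving out each library; those that fell numbered 1, 1, 1 and 0 to 6. Of all genes, 288, 418 and 282 rose and 332, 527 and 330 fell under these 3 alternatives, and on leaving out each library 17 to 1240 rose and 15 to 1315 fell, the highest without BRL replicate 1 and the lowest without vehicle replicate 3; each of the 6 left out moved both counts by over 1.5 times. The median of the HSP70 class was 0.13 in the main fit and 0.052 without BRL replicate 1. It was 0.27 with DESeq2 and 0.27 with no filter, both of which add low genes, Hspa1a among them. On leaving out each library the log2 fold change spanned -0.17 to 0.0067 for Dnajc10, -0.17 to 0.0035 for Dnajc5, -0.028 to 0.37 for Hsf1, -0.092 to 0.026 for Hsf2, -0.032 to 0.19 for Hsp90aa1, -0.13 to 0.13 for Hsp90ab1, -0.035 to 0.27 for Hspa4 and -0.091 to 0.19 for Hspa8; the cause was not tested. With the replicate number as a block, 0 chaperone genes rose and 1 fell (Hspb7), and 63 of all genes rose and 150 fell. Same-numbered libraries deviated with correlations of 0.10, -0.021 and -0.018, and not every library correlated best with its own number. With 3 libraries per group and BRL replicate 1 apart, such correlations cannot show whether same-numbered libraries were handled together. Depth limits Hspa1a, Hspa1b and Dnajc12, which had few counts per library.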
